A study of Mus musculus with 2 samples.

Results

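The genes described here encode, in the nucleus, the proteins of the mitochondrial respiratory chain and of ATP synthase. They were chosen by symbol alone, as every gene whose symbol begins with Ndufa, Ndufb, Ndufc, Ndufs, Ndufv, Cox4 to Cox8, Uqcr or Atp5, and 90 of the 32285 genes in the files matched. Their RNA was read in mouse brain nuclei profiled by Slide-tags, in which nuclei of a frozen section of 20 µm are labelled with spatial barcodes and then sequenced in droplets. Of the 2 libraries, 1 came from the hippocampus of adult male C57BL/6J mice at 56 days of age, and 1 from the brain of whole C57BL/6J embryos at embryonic day 14 (E14). Neither group carried a transgene, deletion or treatment in the labels or methods, and spatial positions were not used here. With 1 library per tissue there were no replicates, so no test was made and every interval below is a 95% interval that covers counting error only.

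The respiratory chain passes electrons from NADH and succinate to oxygen and pumps protons across the inner mitochondrial membrane, and ATP synthase uses the returning protons to make ATP. Complexes I, III and IV and ATP synthase are built from subunits of both genomes: 13 proteins are encoded by mitochondrial DNA, under symbols that begin with mt-, and the others by the nuclear genes described here. Neurons depend on this pathway for most of their ATP, and several subunits of complex IV exist as a common form and a form restricted to certain tissues.

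By role, the 90 genes comprised 7 core subunits of complex I, which hold its redox centres, 30 accessory subunits of complex I, and 8 factors that assemble complex I and leave it again. A further 8 encode complex III, 11 the common subunits of complex IV, 8 tissue-restricted forms of complex IV subunits, 5 the catalytic F1 part of ATP synthase and 12 its membrane part and stalk. The remaining gene was Cox7a2l, a factor that joins complexes III and IV into supercomplexes. The symbol rule therefore took in 9 factors that are not subunits of a complex, while complex II and cytochrome c did not match it and are given separately. Ndufa4 was counted with complex IV, to which its protein belongs despite its name, and Ndufb1-ps carries a pseudogene suffix in its symbol.

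The files held 1661 droplet barcodes for the hippocampus and 9037 for E14. After removal of droplets with 5% or more mitochondrial UMIs, unique molecular identifiers that each mark 1 captured RNA molecule, 1609 and 9036 were kept. Their depth was 15346746 UMIs in the hippocampus, with a median of 6607 per nucleus, and 58923882 in E14, with a median of 4204, and 1 barcode was shared between the libraries. Droplets with under 1.5% of their UMIs from Malat1, an RNA kept in the nucleus, were taken as a group in both libraries. It comprised 317 droplets (19.7%) in the hippocampus and 1057 (11.7%) in E14. The limit did not mark off a separate group in E14. There, 268 droplets lay from 1.25% to 1.5% and 311 from 1.5% to 1.75%. Levels by cell class are therefore given with and without these Malat1-poor droplets.

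In each library 89 of the 90 genes had at least 1 UMI. Cox8c, a testis form of a complex IV subunit, had 0 UMIs in the hippocampus, which allows up to 3, and 1 UMI in E14. Cox6a2, a heart and skeletal muscle form, had 115 UMIs in the hippocampus and 0 in E14. Cox6b2, Cox7a1 and Cox8b had 29, 16 and 4 UMIs in the hippocampus, and Cox7a1 and Cox8b had 40 and 4 in E14. The other genes had at least 50 UMIs in each library. The 10 genes with most UMIs held 28.2% of the summed UMIs in the hippocampus and 27.8% in E14.

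Summed over all kept nuclei, the 90 genes made up 6422 UMIs per 1000000 UMIs of all genes (CPM) in the hippocampus (6382 to 6462) and 4488 in E14 (4471 to 4506). The 13 mt- genes made up 2097 and 1322 CPM. Cox4i1, the common form of the largest nuclear subunit of complex IV, stood at 266.5 CPM in the hippocampus (258 to 275) and 185 in E14 (182 to 189), and Cox8a, the common form of subunit VIII, at 249.6 (242 to 258) and 112 (109 to 114). The beta and alpha subunits of F1, which bind the nucleotide, are encoded by Atp5b and Atp5a1. Atp5b was at 187 and 118 CPM, and Atp5a1 at 157 and 117. Atp5f1 and Atp5h, which encode parts of the stalk, were at 141 and 134 in the hippocampus and at 77.6 and 79.0 in E14. In complex I, the core subunits Ndufs1 and Ndufv2 were at 91.4 and 74.7 CPM in the hippocampus, and at 80.2 and 46.0 in E14. The accessory subunits Ndufs4 and Ndufb9 were at 129.8 and 123.5 in the hippocampus and at 143.8 and 82.2 in E14, with the higher level in E14 for Ndufs4 alone of the pair. The assembly factors Ndufaf2 and Ndufaf4 were at 52.9 and 51.5 in the hippocampus and at 78.9 and 24.9 in E14, and so differed in opposite directions. Uqcrh and Uqcrc2 of complex III were at 89.7 and 73.2 CPM in the hippocampus and at 64.8 and 44.5 in E14, and Cox7a2l at 76.0 and 42.3. The counts include intronic reads and are not corrected for gene length, so levels were compared between nuclei and not between genes.

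All 90 genes matched the GENCODE vM21 annotation of GRCm38, the build called mm10 in the labels. They lay on 19 chromosomes, with 9 on chromosome 7 and 3 on chromosome X, and their median length from start to end was 7.20 kb, against 12.3 kb for all 32235 matched genes. 6 of them overlap another gene on the same strand, Cox4i1 and Ndufb9 among them, and RefSeq names a pseudogene for 9, such as Uqcrh, Cox5b and Cox7c, so that reads of these genes may be split or lost.

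The promoters of these genes are shown because nuclear respiratory factor 1 (NRF1) is a textbook regulator of respiratory chain genes and its core motif is short enough to read. RefSeq promoter sequences, from 250 bases before to 50 bases after the start site on GRCm38.p6, were present for 74 of the 90 genes. A gene was counted for a motif if any of its promoter sequences held it. The letters GCATGCGC, the core of the NRF1 motif, occurred on either strand for 11 of these 74 genes (14.9%). Of all 27025 genes with such sequences, 3.05% had them. Windows of 30 bases around the match in 4 of the 11 genes follow, 5′ to 3′ on the strand of the gene, with the motif in capitals.
Cox6a1, chr5:115349100-115349129, minus strand: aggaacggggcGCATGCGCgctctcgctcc
Atp5g2, chr15:102671069-102671098, minus strand: gctccggccgcGCATGCGCagagccttccc
Uqcr11, chr10:80406807-80406836, minus strand: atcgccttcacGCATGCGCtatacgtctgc
Ndufa11, chr17:56717693-56717722, plus strand: ctgcactgcgcGCATGCGCgcacgccttgt
In these 4 genes the first base of the motif lay at positions -160, -40, -4 and -58 from the start site, in the same order. The letters CCGGAAG, the core bound by the ETS factor GABPA, occurred for 17 of the 74 genes (23.0%) against 9.93% of all genes. AAGATGGC, the YY1 motif, occurred for 11 (14.9%) against 3.19%. AAGGTCA, a site bound by the receptor ESRRA, occurred for 7 (9.46%) against 5.38%. All were searched on both strands, and AAG at the end of CCGGAAG can also begin AAGATGGC. Some genes were counted for more than 1 of these motifs, Atp5k and Atp5l among them. A match is a run of letters and not a measured binding site.

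Nuclei were assigned to classes by UMIs of marker genes, with at least 3 UMIs from at least 2 markers of a list and at least 50% of a nucleus's marker UMIs. In the hippocampus 27.4% of nuclei and in E14 50.3% met no list and stayed unclassed. Dentate granule-like and pyramidal-like nuclei, the main neurons of the hippocampus, were present with 290 and 185 nuclei, but the section also held 94 thalamic-like nuclei. In the E14 thalamic-like class Ntng1, Tcf7l2 and Rora gave 44.1%, 27.0% and 26.4% of the marker UMIs, and Gbx2 and Shox2 were close to 0. The 40 hippocampus nuclei chosen on the microglia list had a median of 2167.5 UMIs and no marker of the list among their 10 leading genes. That class is left unnamed and called microglia-list nuclei below. The E14 microglia-like class also had no marker of the list among its 10 leading genes, but its median of 3586 UMIs was near that of its library, so the name rests on the marker UMIs alone.

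**Figure D1:**
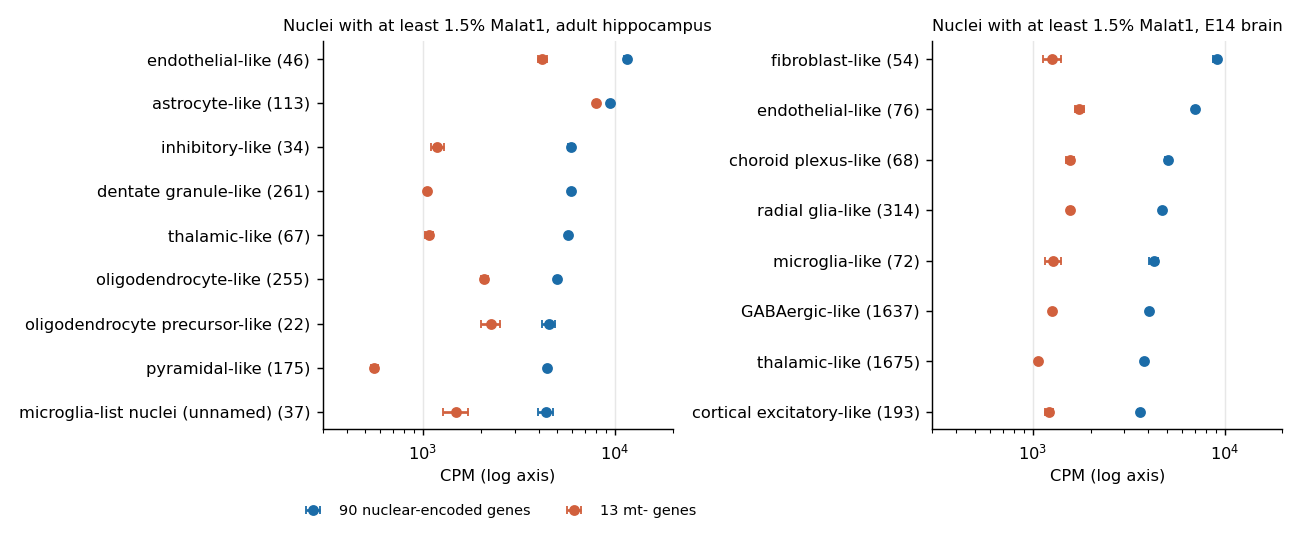
Summed CPM of the 90 nuclear-encoded genes and of the 13 mt- genes in nuclei with at least 1.5% Malat1, by class, on a log axis, for the adult hippocampus (left) and E14 brain (right). Points are sums over the nuclei of a class (number in parentheses) with exact Poisson intervals, and endothelial-like and astrocyte-like nuclei of the hippocampus and fibroblast-like and endothelial-like nuclei of E14 have the highest levels of the nuclear-encoded genes.

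Among hippocampus nuclei with at least 1.5% Malat1, the summed level of the 90 genes was highest in endothelial-like nuclei, at 11539 CPM (11163 to 11925, 46 nuclei), and in astrocyte-like nuclei, at 9418 (9203 to 9638, 113 nuclei). All neuronal classes lay lower. Inhibitory-like nuclei were at 5935 (5723 to 6154), dentate granule-like at 5928 (5849 to 6007) and thalamic-like at 5725 (5599 to 5853), and the intervals of these 3 neighbours overlap. Oligodendrocyte-like nuclei followed at 5018 (4881 to 5156). Oligodendrocyte precursor-like nuclei at 4514 (4166 to 4883), pyramidal-like at 4444 (4375 to 4515) and microglia-list nuclei at 4360 (3995 to 4748) had overlapping intervals at the low end. In mean UMIs of the 90 genes per nucleus, the neuronal classes lay higher, at 83.0 to 117.3. Endothelial-like nuclei had 77.4 and astrocyte-like nuclei 64.1. Single genes followed the order by CPM in part. Of the 85 genes with at least 50 UMIs in the described classes, 59 (69.4%) were highest in endothelial-like and 17 (20%) in astrocyte-like nuclei, against 21.3% and 9.72% of all 13136 genes. The other 9 were Ndufa10, Cox6a2 and Cox7b2, highest in thalamic-like nuclei, Ndufaf5 and Ndufaf6 in inhibitory-like, Ndufs3 and Ndufb1-ps in microglia-list, Ndufaf4 in pyramidal-like and Ndufaf2 in oligodendrocyte-like nuclei. Of the 8 assembly factors of complex I, 4 were thus among them, and Ndufaf1, Ndufaf3, Ndufaf7 and Ndufaf8 were highest in astrocyte-like or endothelial-like nuclei. The highest class is the largest value alone, and intervals of neighbouring classes may overlap. The microglia-list nuclei held only 120883 UMIs of all genes, so Ndufs3 at 99.3 CPM and Ndufb1-ps at 91.0 rest on few UMIs there.

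The make-up of the summed level was similar across classes. In hippocampus nuclei with at least 1.5% Malat1, accessory subunits of complex I gave 27.2% to 30.2% of the summed UMIs in every class, complex III 6.45% to 8.43%, and ATP synthase F1 8.82% to 11.1%. The common subunits of complex IV gave 28.4% in astrocyte-like nuclei and 22.8% to 25.2% in the other classes. Assembly factors of complex I gave 2.61% in endothelial-like and 2.65% in astrocyte-like nuclei, and 3.64% to 5.54% elsewhere. In absolute terms the assembly factors changed little, from 198.5 CPM in microglia-list nuclei to 301.5 in endothelial-like nuclei, while the common complex IV subunits ranged from 1012 in pyramidal-like to 2843 in endothelial-like nuclei.

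The mt- genes did not follow the nuclear-encoded genes from class to class. In the same nuclei they were highest in astrocyte-like nuclei, at 7995 CPM (7796 to 8197), and in endothelial-like nuclei they were at 4182 (3957 to 4417), although the nuclear-encoded genes were higher there. Pyramidal-like nuclei had the lowest mt- level, 557 (533 to 583). There were 0.849 mt- UMIs per UMI of the 90 genes in astrocyte-like, 0.416 in oligodendrocyte-like, 0.362 in endothelial-like and 0.125 in pyramidal-like nuclei. In E14 this ratio was much more even, from 0.139 in fibroblast-like nuclei to 0.337 in cortical excitatory-like nuclei.

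In E14 nuclei with at least 1.5% Malat1, fibroblast-like nuclei had the highest summed level of the 90 genes, at 9089 CPM (8728 to 9462, 54 nuclei). The collagen genes Col3a1, Col1a1 and Col1a2 gave 36.8%, 22.6% and 20.1% of the marker UMIs of this class, and its tissue of origin was not tested. Endothelial-like nuclei were at 6998 (6805 to 7194, 76 nuclei), choroid plexus-like nuclei at 5044 (4911 to 5179) and radial glia-like nuclei at 4730 (4644 to 4817). Microglia-like nuclei at 4260 (4041 to 4488) and GABAergic-like nuclei at 4034 (3996 to 4072) had overlapping intervals. Thalamic-like nuclei at 3814 (3781 to 3848) and cortical excitatory-like nuclei at 3621 (3516 to 3728) were lowest and did not overlap with them. Of the 85 genes with at least 50 UMIs in the described classes, 54 (63.5%) were highest in fibroblast-like and 22 (25.9%) in endothelial-like nuclei, against 19.1% and 18.6% of all 15747 genes. With Malat1-poor droplets included, the level in fibroblast-like nuclei was 11759 (11390 to 12137), since 41.9% of that class was Malat1-poor. The levels of the endothelial-like and cortical excitatory-like classes moved to 7110 and 3634.

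The endothelial list is the same in both libraries, so this class was set side by side, but the markers that chose its nuclei differed. Slco1a4 and Ly6c1 gave 23.2% and 13.6% of the marker UMIs in the hippocampus, but 0.0857% and 0.0214% in E14. Mecom gave 9.69% in the hippocampus and 39.0% in E14, so these nuclei are not matched. In nuclei with at least 1.5% Malat1, the E14 level was 0.606 times the hippocampus level (0.581 to 0.633), against 0.765 (0.759 to 0.771) over all nuclei with at least 1.5% Malat1 in both libraries. For nuclei chosen on the microglia list, it was 0.977 (0.884 to 1.08), an interval that includes 1. Mural markers differed between the endothelial-like classes, with 1196 UMIs of the mural list in 41 of 52 hippocampus nuclei and 627 in 54 of 90 E14 nuclei, and their part in the ratio was not tested. The 2 values compare 1 library with 1 library, and age, tissue, depth and library cannot be told apart.

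**Figure D2:**
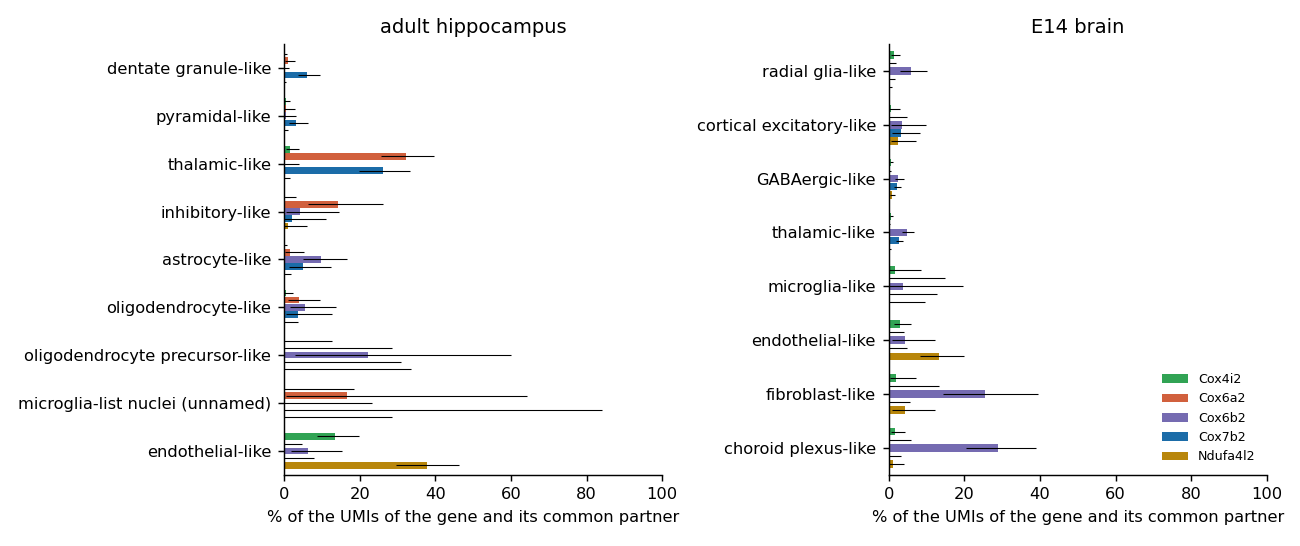
Share of the tissue-restricted form among the UMIs of that gene and its common partner (Cox4i1, Cox6a1, Cox6b1, Cox7b or Ndufa4), in percent, by class, for nuclei with at least 1.5% Malat1. Bars are shares with exact binomial intervals. Cox6a2 and Cox7b2 stand out in thalamic-like nuclei and Ndufa4l2 and Cox4i2 in endothelial-like nuclei of the hippocampus, and Cox6b2 in fibroblast-like and choroid plexus-like nuclei of E14.

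Several tissue-restricted forms of complex IV subunits had their highest level in 1 or 2 of the described classes. Cox6a2 (ENSMUSG00000030785) lies on chromosome 7 from 128205435 to 128206387 of GRCm38, and encodes the heart and muscle form of subunit VIa, in place of Cox6a1. Thalamic-like nuclei of the hippocampus with at least 1.5% Malat1 had 59 Cox6a2 UMIs in 28 of 67 nuclei, or 43.0 CPM (32.7 to 55.5). In inhibitory-like nuclei there were 8 UMIs in 5 of 34 nuclei, 16.2 CPM (6.98 to 31.9). Pyramidal-like nuclei, at about the same median depth (19062 UMIs against 18542 in thalamic-like nuclei), had 1 UMI in 175 nuclei, 0.286 CPM (0.00725 to 1.59), and dentate granule-like nuclei 3 in 261. Cox6a2 was thus 32.2% of the Cox6a1 and Cox6a2 UMIs in thalamic-like nuclei (25.5% to 39.5%), 14.3% in inhibitory-like nuclei (6.38% to 26.2%) and 0.524% in pyramidal-like nuclei (0.0132% to 2.88%). The common form Cox6a1 was present in all of these classes, at 90.3, 97.0 and 54.4 CPM. In E14, where 0 of 4079 UMIs of the pair were from Cox6a2, the thalamic-like class also had 0 of 889.

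Cox7b2 (ENSMUSG00000049387, chromosome 5, 71442824 to 71548205) is a form of subunit VIIb best known from testis. It too was highest in thalamic-like nuclei of the hippocampus, with 45 UMIs in 25 of 67 nuclei, 32.8 CPM (23.9 to 43.9), against 7 UMIs in 175 pyramidal-like nuclei, 2.00 CPM (0.806 to 4.13). Its share of the Cox7b and Cox7b2 UMIs was 26.2% in thalamic-like nuclei (19.8% to 33.4%), 6.19% in dentate granule-like nuclei and 3.17% in pyramidal-like nuclei. In E14 thalamic-like nuclei it was 2.80% (1.93% to 3.90%). The thalamic lists of the libraries share only part of their markers, so these nuclei are not matched.

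Ndufa4l2 (ENSMUSG00000040280, chromosome 10, 127514967 to 127517154) is a relative of Ndufa4 known to be induced in hypoxia, and Cox4i2 (ENSMUSG00000009876, chromosome 2, 152754173 to 152765037) encodes the form of subunit IV known from lung. Among the described classes of the hippocampus both were highest in endothelial-like nuclei, but many of their UMIs lay in unclassed nuclei. Of 95 Ndufa4l2 UMIs in hippocampus nuclei with at least 1.5% Malat1, 52 came from 13 of the 46 endothelial-like nuclei and 42 from 10 unclassed nuclei, while 255 oligodendrocyte-like nuclei of similar depth had 0, which allows up to 3. The endothelial-like level was 169 CPM (126 to 221), and Ndufa4l2 was 37.7% of the UMIs of the pair with Ndufa4 (29.6% to 46.3%). Cox4i2 had 22 UMIs there, 71.3 CPM (44.7 to 108.0), or 13.6% of the pair with Cox4i1 (8.71% to 19.8%), and 19 of the other 27 UMIs lay in unclassed nuclei.

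Both genes are also known from pericytes, the mural cells that wrap capillaries. UMIs of the mural marker list were therefore counted in the endothelial-like classes. In the hippocampus 41 of the 52 endothelial-like nuclei held a UMI of the mural list, 1196 such UMIs in all. All 52 Ndufa4l2 and 23 Cox4i2 UMIs of the class lay in those 41 nuclei, in 13 and 11 of them. The 11 endothelial-like nuclei with no mural UMI had 0 of each, but their depth was low, with a median of 1449 UMIs and an upper bound of 219 CPM for either gene. The part of mural RNA in these levels was not tested, and mural UMIs of the unclassed nuclei are not given here. Only 3 hippocampus nuclei met the mural list itself, with 1 Ndufa4l2 and 0 Cox4i2 UMIs. In E14, 15 nuclei met it, and had 4 Ndufa4l2 UMIs in 4 nuclei, 85.7 CPM (23.3 to 219), against 1.41 CPM in the other nuclei. They had 3 Cox4i2 UMIs in 2 nuclei, 64.25 CPM (13.25 to 188), against 1.95. In E14 endothelial-like nuclei, Ndufa4l2 was at 28.6 CPM (17.0 to 45.3) with mural UMIs and 8.11 (0.205 to 45.2) without. Cox4i2 was at 11.1 (4.48 to 22.95) and 8.11 (0.205 to 45.2), so both pairs of intervals overlap.

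Cox6b2 (ENSMUSG00000051811, chromosome 7, 4751792 to 4753094), a testis form of subunit VIb, showed its own pattern in E14. It was at 49.6 CPM in fibroblast-like nuclei (26.4 to 84.9, 13 UMIs) and at 26.8 in choroid plexus-like nuclei (17.9 to 38.4, 29 UMIs), against 1.88 in GABAergic-like nuclei (1.15 to 2.91) and 4.52 in radial glia-like nuclei (2.26 to 8.09). Its share of the Cox6b1 and Cox6b2 UMIs was 25.5% (14.3% to 39.6%) and 29% (20.4% to 38.9%) in the first pair of classes, and 2.59% in GABAergic-like nuclei. Cox7a1 and Cox8b, the heart and muscle partners of Cox7a2 and Cox8a, were 1.33% and 0.136% of their pairs in the hippocampus and 0.870% and 0.0667% in E14. Cox7a1 was highest in E14 fibroblast-like nuclei, with 3 of 40 UMIs of the pair, 7.50% (1.57% to 20.4%), and for Cox8b, with 4 UMIs in each library, no difference between classes was detectable.

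The 3 genes for subunit c of ATP synthase, Atp5g1, Atp5g2 and Atp5g3, encode the same mature protein behind different import signals, and their balance differed between the libraries. In nuclei with at least 1.5% Malat1, Atp5g2 gave 31.1% of their UMIs in the hippocampus (29.5% to 32.8%) and 53.3% in E14 (52.3% to 54.3%). All 8 E14 classes had 44.9% to 62.8% from Atp5g2. In the hippocampus its share was 19.6% in thalamic-like, 22.0% in inhibitory-like, 23.8% in pyramidal-like and 32.7% in dentate granule-like nuclei. It was 38.9% in microglia-list (7 of 18 UMIs), 40.1% in astrocyte-like, 45.3% in oligodendrocyte-like, 45.5% in endothelial-like and 55.6% in oligodendrocyte precursor-like nuclei (15 of 27 UMIs). All neuronal classes of the hippocampus, the astrocyte-like and the microglia-list nuclei thus lay below the range of the E14 classes, and the other 3 classes lay within it.

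Between adult neurons and glia, the comparison asked whether the summed level differed between the 607 neuronal nuclei (dentate granule-like, pyramidal-like, thalamic-like and inhibitory-like) and the 465 glial nuclei (astrocyte-like, oligodendrocyte-like and oligodendrocyte precursor-like). The neuronal level was 5690 CPM and the glial level 8457, a ratio of 0.673 (0.661 to 0.684). None of 84 genes with at least 50 UMIs was at least 2-fold higher in neurons, against 16.1% of all 12883 genes, and 5 were at least 2-fold lower, Ndufc2, Cox4i1, Ndufb9, Cox8a and Cox6a1, against 17.7% of all genes. The median ratio was 0.701 for the 84 genes and 0.921 for all genes, and 72 of the 84 were below 1. Ndufc2, an accessory subunit of complex I, had the lowest ratio, 0.400 (0.349 to 0.459), followed by Cox4i1 at 0.436 (0.403 to 0.471). The highest ratios were those of Ndufaf6, at 1.94 (1.27 to 3.10), Cox7b2, at 1.86 (0.927 to 4.22), and Cox6a2, at 1.72 (0.937 to 3.45), and the last 2 intervals include 1. The ratio of summed mt- UMIs was 0.180 (0.175 to 0.185) and that of 87 ribosomal protein genes 0.439 (0.434 to 0.445), both lower than that of the respiratory chain genes. By role, the ratio was lowest for the common complex IV subunits, at 0.582 (0.563 to 0.601), and lay between 0.649 for complex III and 0.800 for the complex I core in most others. The tissue-restricted forms, at 0.859 (0.622 to 1.21), and the assembly factors of complex I, at 0.95 (0.863 to 1.05), had intervals that include 1. Of the neighbouring pathways, glycolysis was at 0.676 (0.654 to 0.699), close to the respiratory chain genes, complex II and cytochrome c at 0.770 (0.710 to 0.836), and the citric acid cycle at 0.894 (0.852 to 0.938). Factors that assemble complex IV were at 0.895 (0.831 to 0.965) and the regulators at 1.07 (0.997 to 1.15), with a median of 0.865 and a sum of 0.837 (0.775 to 0.905) without Esrrg. Among mt- genes the ratio ran from 0.160 for mt-Atp6 to 0.226 for mt-Nd4l.

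The glial sum rested on astrocyte-like nuclei. Among nuclei with at least 1.5% Malat1, oligodendrocyte-like nuclei (5018) lay within the range of the neuronal classes (4444 to 5935) and astrocyte-like nuclei (9418) above all of them. The median depth was 13119 UMIs in neurons and 3246 in glia, and 11.5% and 16.1% of the nuclei were Malat1-poor. The ratio was 0.791 (0.775 to 0.806) without Malat1-poor droplets and 0.688 in the deeper nuclei of each class. Depth had no common direction within classes: the deeper nuclei of a class had the lower level in pyramidal-like nuclei (4087 against 5140 in the shallower ones) and the higher in astrocyte-like nuclei (9651 against 8753).

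In E14, the 1940 neuronal nuclei (cortical excitatory-like and GABAergic-like) were set against the 479 radial glia-like nuclei, the progenitors of the embryonic brain. The levels were 4053 and 4951 CPM, a ratio of 0.819 (0.804 to 0.834). The 1721 thalamic-like nuclei of E14, at 3841 CPM, were not counted among these neurons, although thalamic-like nuclei were in the hippocampus comparison. None of 82 genes differed 2-fold in either direction, while 11.7% of all 13496 genes were at least 2-fold higher in neurons and 13.7% at least 2-fold lower. The median ratio of the 82 genes, 0.825, lay near that of all genes, 0.870. The range ran from 0.622 for Ndufaf2 (0.547 to 0.708), 0.626 for Ndufa12 (0.518 to 0.760) and 0.636 for Ndufc2 (0.548 to 0.741) to 1.08 for Ndufb2 (0.870 to 1.34), 1.11 for Cox5a (0.953 to 1.29) and 1.23 for Uqcrfs1 (0.880 to 1.74). By role, the ratio lay between 0.796 for complex III and 0.895 for Cox7a2l, except for the assembly factors of complex I, at 0.689 (0.634 to 0.749), and the tissue-restricted forms had too few UMIs for single genes. Glycolysis was at 0.690 (0.657 to 0.724), with 6 of 16 genes at least 2-fold lower in neurons and 1 higher, the citric acid cycle at 0.821 (0.782 to 0.862), complex II and cytochrome c at 0.869 (0.793 to 0.954), complex IV assembly at 0.861 (0.813 to 0.912), and the regulators at 1.16 (1.09 to 1.22). The regulator sum rested on Esrrg, at 3.98 (3.45 to 4.61): the median of the list was 0.910, and without Esrrg the sum was 0.711 (0.668 to 0.758). The summed mt- ratio was 0.776 (0.751 to 0.801), from mt-Nd6 at 0.678 to mt-Atp8 at 1.21, and 34.5% of radial glia-like but 5.67% of neuronal nuclei were Malat1-poor. The part of these droplets was measured directly, and without them the ratio was 0.844 (0.827 to 0.861).

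Across the libraries, the summed level in E14 was 0.699 times that in the hippocampus (0.694 to 0.704). Malat1-poor droplets, 19.7% of the hippocampus and 11.7% of E14, are included. With only nuclei of at least 1.5% Malat1, a setting chosen after seeing the data, the sum was 0.765 (0.759 to 0.771). The gene counts and ratios in this paragraph and the next were not repeated without Malat1-poor droplets. Genes near the 2-fold limit may therefore not keep their call in such nuclei. Of 88 genes with at least 50 UMIs in both libraries together, 15 were at least 2-fold lower in E14, against 16.4% of all 18525 genes, and 1 was at least 2-fold higher, against 22.4%. The share of 2-fold lower genes was thus close to the background, but the shift was broad, with 78 of 88 genes below 1 and a median ratio of 0.672, against 1.11 for all genes. The single higher gene was Cox6b2, at 4.43 CPM in E14 and 1.89 in the hippocampus, a ratio of 2.34 (1.59 to 3.57), and next came Ndufaf2 at 1.49 (1.39 to 1.61) and Atp5g2 at 1.34 (1.26 to 1.43). Cox6a2 was lowest, with 0 UMIs in E14. With that count held at a floor of 3 over the library it was 147-fold lower, a value that the floor sets and not an estimate. The upper limit of the interval for Cox6a2 was a ratio of 0.00849. Next came Ndufa4l2 at 0.234 (0.173 to 0.315) and Ndufs7, a core subunit of complex I, at 0.326 (0.298 to 0.356). The others in complex I were the core subunit Ndufs8, at 0.470, the accessory subunits Ndufb10, Ndufb4 and Ndufa8, at 0.375, 0.398 and 0.460, and the assembly factors Ndufaf3 and Ndufaf4, at 0.405 and 0.484. In the other complexes they were the Rieske protein Uqcrfs1 of complex III, at 0.411, the complex IV subunits Cox7b2, Cox8a, Cox5b and Cox6c, at 0.330, 0.447, 0.452 and 0.498, and Atp5j of the ATP synthase stalk, at 0.462.

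By role, the E14 to hippocampus ratio was 0.607 (0.589 to 0.625) for the complex I core, 0.710 (0.700 to 0.719) for its accessory subunits, 0.658 (0.641 to 0.676) for complex III, 0.685 (0.675 to 0.695) for the common complex IV subunits and 0.715 and 0.729 for the parts of ATP synthase. It was closest to 1 for the assembly factors of complex I, at 0.862 (0.830 to 0.894). The summed mt- ratio was 0.631 (0.622 to 0.639), with mt-Atp6 lowest at 0.414 and mt-Atp8 highest at 1.54 (1.05 to 2.31), while the 87 ribosomal protein genes were higher in E14, at 1.24 (1.24 to 1.25). Of the neighbouring pathways, complex II and cytochrome c were at 0.629 (0.608 to 0.652) and pyruvate dehydrogenase and the citric acid cycle at 0.701 (0.688 to 0.715). Glycolysis and lactate dehydrogenase were lower, at 0.397 (0.390 to 0.403), with 12 of 16 genes at least 2-fold lower, such as Aldoa at 0.112 and Gapdh at 0.316. The sums for complex IV assembly, 1.15 (1.11 to 1.18), and for the regulators of mitochondrial genes, 1.21 (1.18 to 1.24), went against the medians of their genes, 0.977 and 0.742, and in each list 0 genes were at least 2-fold higher and 1 lower. The assembly sum rested on Cox16, at 1.63, and was 0.83 (0.799 to 0.862) without it. Among the regulators Esrrg and Nrf1, which encode a nuclear receptor and the factor NRF1, were at 1.88 (1.79 to 1.97) and 1.82 (1.72 to 1.93), and without these 2 genes, left out after their values were seen, the sum of the other 9 was 0.650 (0.626 to 0.674), with 7 of them below 1.

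**Figure D3:**
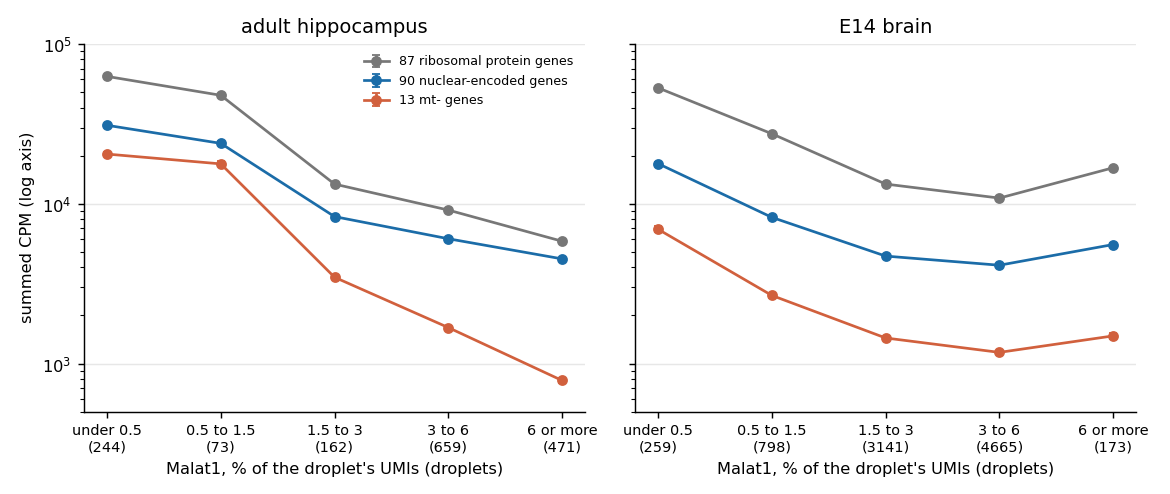
Summed CPM, on a log axis, of the 90 nuclear-encoded genes, the 13 mt- genes and 87 ribosomal protein genes in droplets grouped by the Malat1 share of their UMIs, for the hippocampus (left) and E14 (right), with exact Poisson intervals that are mostly smaller than the points. All 3 sums are highest below 0.5% Malat1, and in the hippocampus they fall from each group to the next.

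The largest difference in the hippocampus was between Malat1-poor droplets and the rest. The 317 Malat1-poor droplets had 28607 CPM from the 90 genes (28151 to 29068), and the other 1292 nuclei 5636 (5598 to 5674), a ratio of 5.08 (4.99 to 5.17). The mt- genes differed more, at 19560 against 1478, a ratio of 13.2 (12.9 to 13.6), and the ribosomal protein genes were at 7.04 (6.95 to 7.13). Of 86 genes with at least 50 UMIs, 76 were at least 2-fold higher in Malat1-poor droplets, against 22.1% of all 13903 genes, and 0 at least 2-fold lower, against 27.1%. The median ratio was 4.96 for the 86 genes and 0.953 for all genes. The level fell stepwise with the Malat1 share, from 30988 CPM below 0.5% Malat1 and 23878 from 0.5% to 1.5% to 8310 from 1.5% to 3%, 6039 from 3% to 6% and 4517 at 6% or more. Just inside the limit, from 1.25% to 1.5%, 14 droplets had 18808, and just outside it, from 1.5% to 1.75%, 20 had 10215. With the limit at 2.5% in place of 1.5% the ratio was 2.95.

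In UMIs per droplet the picture was different. Malat1-poor droplets had a median of 908 UMIs in all, against 9071.5 in the other nuclei, so that a mean of 47.4 UMIs of the 90 genes per droplet stood against 64.7. For the ribosomal protein genes the means were 95.6 and 94.0, and for the mt- genes 32.4 and 17.0. Pooled over classes and depths, the higher CPM level thus went with fewer UMIs in all and a lower mean of respiratory chain UMIs per droplet. Oligodendrocyte-like droplets went the other way, with means of 115 in Malat1-poor and 20.2 in the other droplets. The CPM level was also higher in Malat1-poor droplets when only shallow droplets were compared. Among droplets under 2000 UMIs, the 255 Malat1-poor ones, with a median of 762 UMIs, had 29770 CPM (29071 to 30482), and the other 106, with a median of 1422.5, had 8734 (8258 to 9230). Under 1000 UMIs, where the medians were 660 and 769.5, the values were 29990 (29018 to 30986) in 175 and 17460 (15740 to 19317) in 28 droplets, so the difference was smaller in the shallowest droplets.

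**Figure D4:**
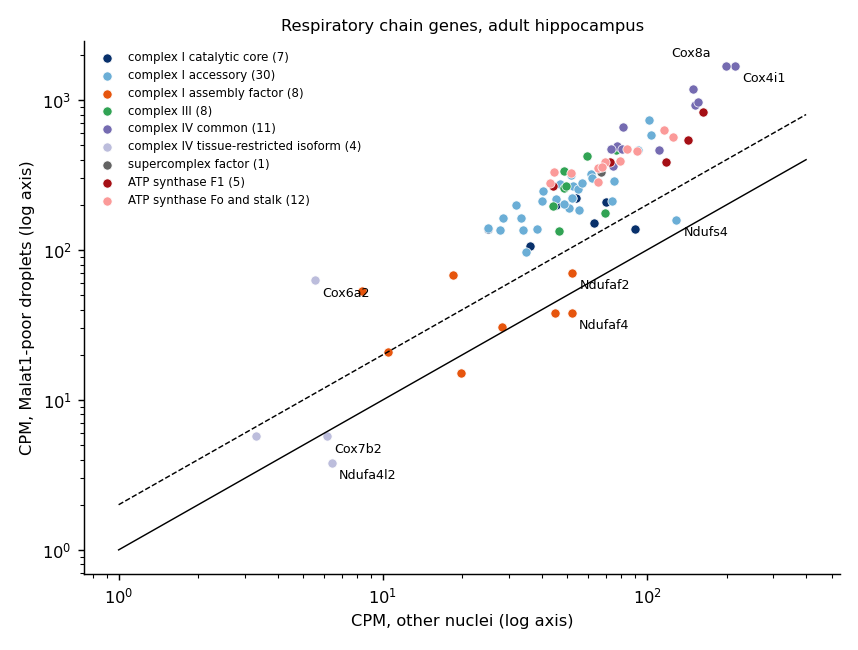
CPM of each of 86 respiratory chain genes in Malat1-poor droplets against the other nuclei of the hippocampus, on log axes, coloured by role. The solid line marks equal levels and the dashed line a 2-fold higher level in Malat1-poor droplets, and 76 genes lie on or above the dashed line, with assembly factors of complex I, Ndufs4 and Ndufa4l2 among the others.

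The ratio differed between roles. It was 6.84 (6.63 to 7.06) for the common complex IV subunits, all 11 of which were at least 2-fold higher. Cox8a was at 1683 CPM against 199, a ratio of 8.46 (7.84 to 9.13), and Cox6a1 at 662 against 80.9, a ratio of 8.19 (7.25 to 9.23). The membrane part and stalk of ATP synthase were at 5.37 (5.14 to 5.60), complex III at 5.11 (4.80 to 5.43), complex I accessory subunits at 4.67 (4.52 to 4.83) and F1 at 4.46 (4.205 to 4.74). The core subunits of complex I were lower, at 3.05 (2.80 to 3.31), and Ndufs1, which carries iron-sulfur clusters of the complex, was at 1.53 (1.19 to 1.94). The assembly factors of complex I were at 1.43 (1.22 to 1.66), with 3 of 8 at least 2-fold higher. Among them Ndufaf4 and Ndufaf6 had the lowest ratios of all 86 genes, 0.733 (0.445 to 1.14) and 0.768 (0.328 to 1.53), apart from Ndufa4l2 at 0.594 (0.0709 to 2.21), and all 3 intervals include 1.

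Cox6a2 had the highest ratio, 11.4 (7.34 to 17.2), at 62.8 CPM in Malat1-poor droplets and 5.53 in the rest. Its class moved with it, since 17 of its 33 UMIs in Malat1-poor droplets lay in thalamic-like droplets, and 28.7% of thalamic-like droplets but 19.7% of all were Malat1-poor. Within the thalamic-like class Cox6a2 was at 242 CPM in Malat1-poor droplets (141 to 388) and at 43.0 in the rest (32.7 to 55.5). Cox7b2, the other gene raised in thalamic-like nuclei, had 0 UMIs in the 27 Malat1-poor thalamic-like droplets, an upper bound of 52.5 CPM that lies above its level of 32.8 in the rest, so a difference was not detectable.

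The neighbouring pathways differed in the same split. All 16 genes of glycolysis and lactate dehydrogenase were at least 2-fold higher in Malat1-poor droplets, with a summed ratio of 4.51 (4.35 to 4.68), as Aldoa at 4.70 and Gapdh at 4.95. Complex II and cytochrome c were at 3.10 (2.81 to 3.42), with all 6 genes at least 2-fold higher, and pyruvate dehydrogenase and the citric acid cycle at 2.52 (2.38 to 2.68), with 10 of 15. Factors that assemble complex IV were at 1.32 (1.16 to 1.496), with 3 of 11 higher and 1, Cox16, lower at 0.481. The regulators of mitochondrial genes were at 0.915 (0.799 to 1.04), an interval that includes 1, with 2 of 10 higher and 3 lower, and Nrf1 was at 0.280 and Esrrg at 0.518. Without Nrf1 and Esrrg the regulator sum was 1.36 (1.16 to 1.57), and without Cox16 the complex IV assembly sum was 1.90 (1.65 to 2.17). All 12 mt- genes with at least 50 UMIs were at least 2-fold higher, from mt-Nd3 at 7.59 (5.27 to 10.7) to mt-Nd5 at 14.4 (11.7 to 17.6).

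**Figure D5:**
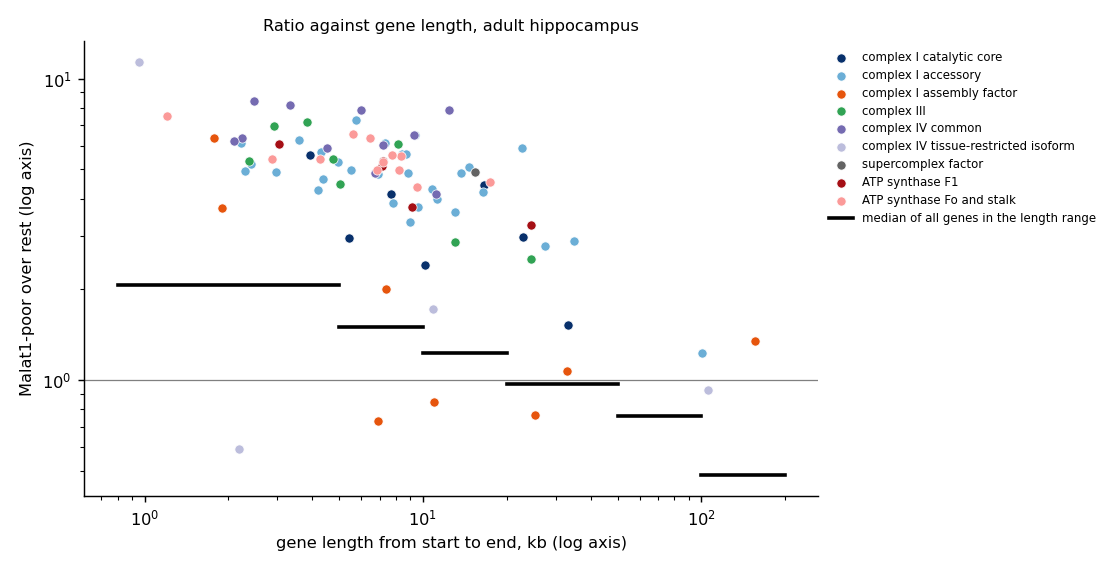
Ratio of Malat1-poor droplets over the rest for 86 respiratory chain genes of the hippocampus against the length of the gene from start to end in kb, on log axes, coloured by role. Black lines are medians of all genes in the same length range. Both the points and the lines fall with length, and most points lie above the line of their range.

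The ratio fell with the length of the gene, which the symbol rule did not use. Across the 86 genes Spearman's rho between ratio and length was -0.57, and across 13896 genes it was -0.41. These are descriptions of 1 library in which all genes share the same droplets and depths. Of the genes under 5 kb, 26 of 27 were at least 2-fold higher, against 51.1% of all genes of that length, with a median of 5.72 against 2.06. From 5 to 10 kb the medians were 5.06 and 1.505, from 10 to 20 kb 4.21 and 1.23, and from 20 to 50 kb 2.78 and 0.969. The 3 genes over 100 kb, Ndufaf2 (155.9 kb), Cox7b2 (105.4 kb) and Ndufs4 (100.5 kb), were at 1.35, 0.930 and 1.23, and the median of all genes in that range was 0.483. Ndufs4 lies on chromosome 13 from 114287795 to 114388258 and Ndufaf2 on the same chromosome from 108002715 to 108158623. The respiratory chain genes thus had higher ratios than all genes in each range that held any of them, and the difference from other genes at the same length was not tested.

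Within classes the ratio held its direction but not its size. The order of the classes rests on few Malat1-poor droplets, whose numbers are given here. The ratio was 6.72 (6.16 to 7.32) in pyramidal-like droplets (10 Malat1-poor) and 5.75 (5.46 to 6.05) in oligodendrocyte-like (18). It was 4.63 (4.38 to 4.89) in dentate granule-like (29), 4.23 (4.01 to 4.46) in thalamic-like (27) and 3.02 (2.89 to 3.16) in astrocyte-like droplets (56). The mt- ratio was 13.9 to 16.2 in the first 4 of these and 3.01 (2.87 to 3.16) in astrocyte-like droplets, where it equalled that of the nuclear-encoded genes within the intervals. Malat1-poor droplets of these 5 classes had levels of the 90 genes between 24238 and 29866 CPM, so that the classes lay closer together there than among the other nuclei. In 4 of the 5 classes the mean number of UMIs of the 90 genes per droplet was lower in Malat1-poor droplets, as in dentate granule-like ones with 46.5 against 83.0. In oligodendrocyte-like droplets it was higher, with 115 against 20.2, and the mt- UMIs per droplet were 115 against 8.40. The 18 Malat1-poor droplets of that class had 71508 UMIs in all but a median of 1711. Their means may therefore rest on a few deep droplets.

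In E14 the same limit gave a smaller ratio for the sum, 2.27 (2.24 to 2.31), at 9800 CPM in 1057 Malat1-poor droplets and 4311 in the rest. Of 85 genes with at least 50 UMIs in both splits, 83 were higher in Malat1-poor droplets in E14 and 80 in the hippocampus, and 62 were at least 2-fold higher in E14, against 13.8% of all genes. The median ratio of these genes was 2.33, against 1.21 for all 17597 genes. In radial glia-like droplets the ratio was 1.27 (1.22 to 1.32), in GABAergic-like 1.75 (1.67 to 1.84), in thalamic-like 2.02 (1.88 to 2.18) and in fibroblast-like 2.48 (2.32 to 2.64). The mt- ratio in E14 was 2.69 (2.62 to 2.76), far nearer to that of the nuclear-encoded genes than in the hippocampus.

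Within nuclei with at least 1.5% Malat1, the share of the 90 genes varied from nucleus to nucleus together with that of ribosomal protein genes, with Spearman's rho of 0.77 over 1292 hippocampus nuclei and 0.71 over 7979 E14 nuclei. With the mt- share the values were 0.62 and 0.43, and with the number of UMIs -0.17 and -0.35. These nuclei share 1 library per tissue, and the shares of a nucleus have the same total.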

How the data were processed

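Slide-tags single-nucleus libraries of the adult hippocampus and E14 brain were used. The authors aligned reads to mm10 with introns and deposited UMI counts per gene and barcode, without normalization, with Cell Ranger 6.1.2 (hippocampus) and 7.0.1 (E14) in the file headers. CellBender is named in the methods for the embryo, but the E14 header led to its use here as uncorrected counts. Other samples of the series were not analysed here.

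Droplets were required to have 500 UMIs or more, with mitochondrial UMIs below 5%. Counts were summed over nuclei and given per 1000000 UMIs (CPM) with exact Poisson intervals, ratios and shares with exact binomial (Clopper-Pearson) intervals, in Python 3.11.15 with scipy 1.17.1. Genes with at least 50 UMIs in both sets together were compared at a fold of 2, and a count of 0 was held at 3 counts. Classes under 20 nuclei were not described. No doublet caller was run. Stricter class rules and trimming of the deepest nuclei were tried as alternatives. The sums and ratios were tested on simulated data.

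Genes and lists were chosen with earlier results of these data known. Named are the isoform pairs, the 2 genes with most hippocampus UMIs per role, the 3 highest and lowest ratios per comparison, the mt- genes at each end and the 2 leading genes of each pathway list. Genes added after their values were seen are Ndufaf5, the further 2-fold lower genes in E14 and in neurons, and those that differ in their highest class. For symbols listed more than once, the entry with most UMIs was used in the pathway lists.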

Additional observations from a re-analysis of the deposited data

Results flagged for a closer look

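The 52 hippocampus droplets removed by the mitochondrial limit enter no comparison above, and they too held UMIs of the 90 genes. Their summed level was 30480 CPM (29180 to 31822), above the 5636 of nuclei with at least 1.5% Malat1 and near the 28607 of kept Malat1-poor droplets. Of the 52 droplets, 50 were Malat1-poor, their median depth was 912.5 UMIs, and their mt- level was 64304 CPM. The cause was not tested.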

How the results depend on the processing

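For the 9 values and counts, 58 alternatives were run. All ratios kept their direction, while counts of genes have no direction to reverse. The ratios between classes set the highest class over the lowest, so a reversal was unlikely from the start. Of the 58 alternatives, 27 left the value within its counting interval or the count within 1.5 times, and 31 moved it. No paired analysis was possible because each tissue had 1 library, and leaving out a replicate was not possible for the same reason. The Malat1-poor ratio (5.08) became 5.20 at a Malat1 limit of 1%, 2.95 at 2.5%, 4.94 with at least 2000 UMIs, 4.31 with under 1% mitochondrial UMIs, 4.90 with Malat1 and mt- UMIs left out of the total, 4.73 as a mean of shares per droplet and 5.24 for structural subunits only. In the same way the E14 to hippocampus ratio (0.699) became 0.688 with no mitochondrial limit, 0.787 with under 1% mitochondrial UMIs, 0.708 with at least 2000 UMIs, 0.684 with Malat1 and mt- UMIs left out, 0.556 as a mean of shares, 0.796 with hippocampus nuclei of at least 1.5% Malat1 and 0.765 with such nuclei in both libraries, the last chosen after seeing the data. The ratio of adult neurons to glia (0.673) became 0.644 with no mitochondrial limit, 0.947 with under 1% mitochondrial UMIs, 0.690 and 0.698 with at least 1000 and 2000 UMIs, 0.775 as a mean of shares, 0.791 with at least 1.5% Malat1, 0.892 with 80% of marker UMIs from the list, 0.686 with 6 marker UMIs, 0.647 without the deepest 5% of nuclei and 0.688 in the deeper nuclei of each class. For E14 neurons over radial glia-like nuclei (0.819) the values were 0.835 with at least 2000 UMIs, 0.776 as a mean of shares, 0.844 with at least 1.5% Malat1, 0.670 with 80% of marker UMIs from the list and 0.845 without the deepest 5%. At a fold of 1.5, 44 genes were lower in E14 in place of 15. The ratio of fibroblast-like to cortical excitatory-like nuclei, 3.24, was 2.51 with at least 1.5% Malat1. The cause of these moves was not tested. Genes under 50 UMIs, classes of few nuclei and shallow Malat1-poor droplets limit single-gene values.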
